A study of Mus musculus with 9 samples.

Results

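The genes described here are 51 mouse genes of mitosis and of the mitotic spindle. They were taken by name from a list and matched by symbol to 51 of the 25759 gene rows of an RNA sequencing table of CD4+ T cells. No expression value entered the rule, but the genes were chosen with earlier results of these data known. The table has 3 groups of 3 libraries. The naive group holds wild-type (WT) cells taken directly from lymph node and spleen and sorted as CD4+ cells without CD44 and with CD62. Activated WT cells came from whole lymph node and spleen suspensions kept in culture for 3 days. ConA, a plant lectin that drives T cells to divide, was present at 2 ug/ml and LPS, a bacterial lipopolysaccharide, at 10 ng/ml. They were then sorted as CD4+ cells with CD44 and without CD62L. Activated knockout cells were treated and sorted in the same way and came from BMPR1a/CD4cre conditional knockout mice. BMPR1a is a receptor for bone morphogenetic proteins, and in this line Cre is driven by the Cd4 promoter, which is already active in developing T cells of the thymus. All mice were C57BL/6, 8 to 12 weeks old, and carried a Foxp3GFP reporter transgene, and reporter-positive cells, which mark regulatory T cells, were left out of every sort. Whether replicates came from different mice or cultures is not stated, and p-values below therefore measure only the spread between these libraries, which may be technical.

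As background, mitosis is driven by cyclin-dependent kinase 1 bound to cyclin A or B. It is ended by the anaphase-promoting complex, a ubiquitin ligase that is held back by the spindle checkpoint until every chromosome is attached to spindle microtubules through its kinetochore. Most of the genes involved are transcribed late in the cell cycle and are kept low in resting cells. In quiescent cells the DREAM complex represses them through a promoter element called the cell cycle genes homology region, and in dividing cells the MYBL2 and FOXM1 factors activate them through the same element, often beside CCAAT boxes, which are bound by the factor NF-Y. Naive T cells are resting cells, and stimulated T cells enter repeated divisions.

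Promoter windows show this element in many of the 51 genes. RefSeq promoter windows of GRCm38.p6, from 250 bases before the annotated start to 50 bases from the start on, matched 42 of the 51 symbols. Only the first window listed for a symbol was used, so other starts of a gene were not searched. Foxm1, Ccna2, Cdc25c, Aurkb, Incenp, Spc24, Tpx2, Kif20a and Smc4 had no entry. The 9 windows below run from 110 bases before the start to 30 bases from the start on, in the direction of transcription, with CCAAT and TTTGAA in capitals on either strand, so that a match on the opposite strand appears as ATTGG or TTCAAA. The first 7 are shown because they belong to genes that rose steeply on activation and carry both motifs. Bub3 is shown because it carries both motifs and rose little, and Pttg1 because its window carries neither and it did not rise. Every other gene whose window held neither motif was called higher on activation. The printed windows of Bub3 and Pttg1 lie inside the annotated genes, downstream of their outermost annotated starts.
Cdk1, minus strand, chr10:69352883-69353022: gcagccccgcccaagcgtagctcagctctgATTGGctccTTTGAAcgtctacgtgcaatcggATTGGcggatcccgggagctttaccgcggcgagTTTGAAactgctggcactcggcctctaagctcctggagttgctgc
Ccnb2, minus strand, chr9:70421525-70421664: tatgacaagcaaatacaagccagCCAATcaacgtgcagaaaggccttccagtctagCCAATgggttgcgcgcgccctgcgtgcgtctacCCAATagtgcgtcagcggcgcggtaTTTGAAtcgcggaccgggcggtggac
Cdc20, minus strand, chr4:118437314-118437453: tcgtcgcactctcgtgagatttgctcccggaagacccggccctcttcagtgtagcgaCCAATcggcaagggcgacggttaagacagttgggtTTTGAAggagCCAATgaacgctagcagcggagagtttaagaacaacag
Ube2c, plus strand, chr2:164769819-164769958: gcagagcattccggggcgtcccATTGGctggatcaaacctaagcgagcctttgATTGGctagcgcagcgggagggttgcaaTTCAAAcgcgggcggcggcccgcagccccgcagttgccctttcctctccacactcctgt
Top2a, minus strand, chr11:99024160-99024299: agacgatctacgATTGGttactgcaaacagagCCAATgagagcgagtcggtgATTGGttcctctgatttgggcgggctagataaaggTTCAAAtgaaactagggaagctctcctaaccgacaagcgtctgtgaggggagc
Racgap1, minus strand, chr15:99651627-99651766: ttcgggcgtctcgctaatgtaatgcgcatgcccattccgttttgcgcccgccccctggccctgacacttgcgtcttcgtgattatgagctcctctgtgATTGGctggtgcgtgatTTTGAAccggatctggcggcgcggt
Kif11, plus strand, chr19:37376272-37376411: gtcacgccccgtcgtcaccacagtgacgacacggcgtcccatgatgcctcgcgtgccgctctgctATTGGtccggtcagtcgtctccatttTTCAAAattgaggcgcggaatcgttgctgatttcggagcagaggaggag
Bub3, plus strand, chr7:131560260-131560399: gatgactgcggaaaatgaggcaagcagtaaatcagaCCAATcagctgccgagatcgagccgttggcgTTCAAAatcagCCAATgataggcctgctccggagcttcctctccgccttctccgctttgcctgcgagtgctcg
Pttg1, minus strand, chr11:43425952-43426091: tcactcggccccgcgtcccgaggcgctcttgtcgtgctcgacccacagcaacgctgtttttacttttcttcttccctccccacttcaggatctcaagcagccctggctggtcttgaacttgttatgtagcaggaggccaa

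Searched on both strands of the whole 300-base window, TTTGAA was present in 31 of the 42 windows (73.8%), against 18.1% of all 27025 windows of the reference and 12.2% of the 9184 windows of genes tested here. CCAAT was present in 30 windows (71.4%), against 37.9% of all windows and 39.9% of those of tested genes. Both motifs occurred together in 26 windows (61.9%), against 7.12% and 5.36%. TTCGAA, a variant of the element that reads the same on both strands, was present in 4 windows (9.52%), against 1.57% of all windows. Positions were uneven. TTTGAA began within the 50 bases before the start in 11 genes (26.2%, against 1.52% of tested genes) and within the 50 bases from the start on in 17 (40.5%, against 1.46%), while CCAAT began within the 50 bases before the start in 19 and between 50 and 100 bases before it in 16. The windows of Plk4, Mad2l1, Pttg1, Birc5, Nuf2, Nusap1 and Ncaph held none of the 3 motifs. A match is a match of letters and no evidence of binding.

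On activation, transcripts of nearly all of these genes went from low levels to levels in the upper part of all tested genes. Levels are in FPKM, that is, sequenced fragments normalised to transcript length and library size, and differences between groups are differences of mean log2(FPKM + 1), called here log2 fold changes, which understate the change of genes at low levels. In this comparison, before activation refers to the naive WT libraries and after activation to the activated WT libraries. Genes averaging 0.5 FPKM or more across all 9 libraries entered the limma fit, and a gene was called at a Benjamini-Hochberg adjusted p under 0.05 over all 15126 genes tested. All 51 genes passed the filter, 12 of them with a naive mean below 0.5 FPKM that passed through their activated libraries and so had to differ. Between naive and activated WT cells, 49 of 51 were called higher and 0 lower, where 26.2% of all tested genes were called higher and 25.8% lower. With no filter the count was also 49. The median log2 fold change was 3.62, against -0.01 over all tested genes. In 50 of 51 genes every activated WT library lay above every naive library, against 29.6% of tested genes. The exception was Pttg1. In bulk libraries, fewer cells with a transcript and less transcript per cell cannot be told apart, and culture and sort differ between the groups along with stimulation.

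The naive levels were low but uneven. The naive mean was below 1 FPKM for 21 genes, between 1 and 10 for 25, and at or above 10 for 5: Smc4, Bub3, Pttg1, Cdc25b and Cenpa. In activated WT cells 48 genes had a mean of at least 10 FPKM, and the ratio of the group means was at least 10 for 38 genes, with a median of 29.98. Ranked among all tested genes, the median gene stood at the 14.6th percentile of level in naive cells, at the 78.3rd in activated WT cells and at the 82.6th in activated knockout cells. Of the 100 tested genes with the largest log2 fold change on activation, 24 were among the 51, and of the 200 largest, 35 were.

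**Figure D1:**
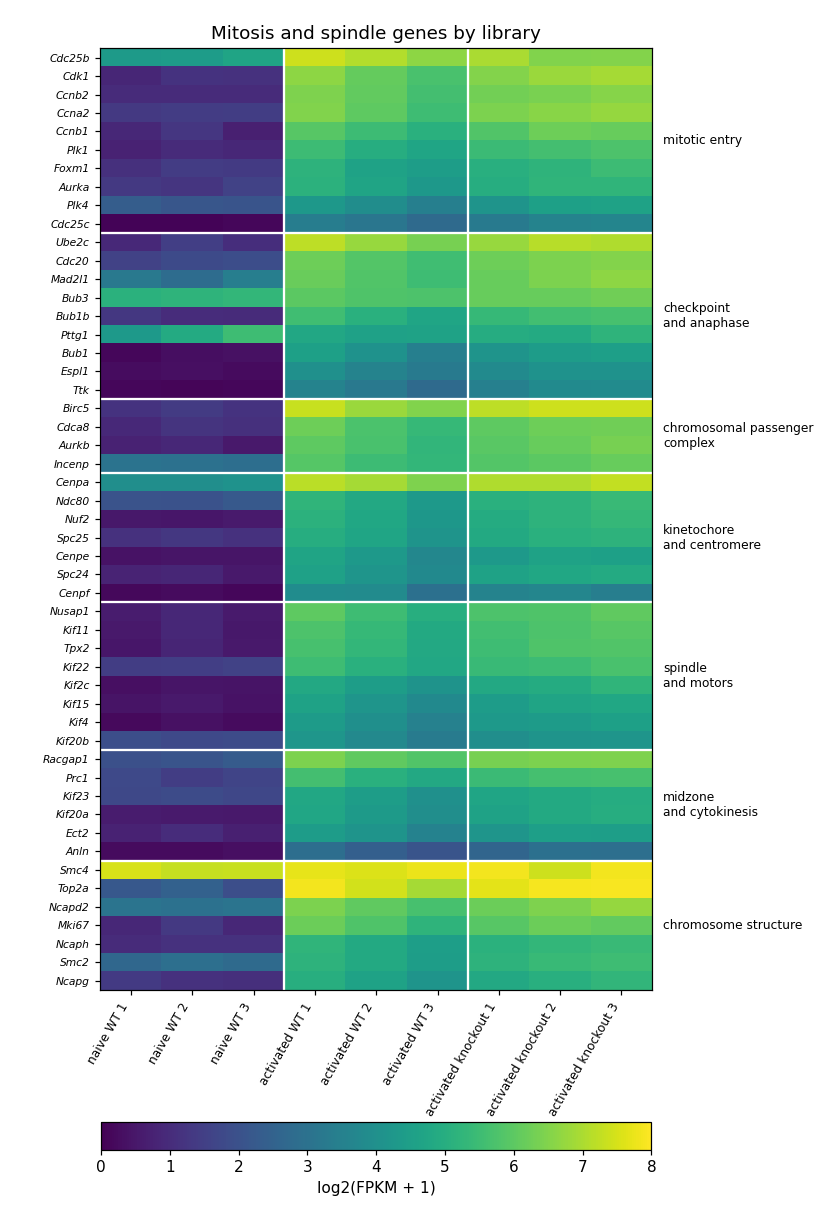
Level of the 51 genes in each of the 9 libraries, as color on the log2(FPKM + 1) scale, with genes in rows grouped by role and libraries in columns. Nearly all rows are dark in the 3 naive libraries and bright in the 6 activated ones; Smc4, Bub3 and Pttg1 are already bright in naive cells, and within activated WT the first library is the brightest in 50 of 51 rows.

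The 10 genes of mitotic entry were all called higher, with a median log2 fold change of 3.81. Cdk1 encodes the kinase that drives entry into mitosis (ENSMUSG00000019942, chromosome 10, 69335146 to 69352938 in GRCm38). Its naive libraries stood at 0.809, 1.24 and 1.19 FPKM and its activated WT libraries at 98.3, 67.8 and 51. The lowest activated library was therefore far above the highest naive one (log2 fold change 5.10 ± 0.226 SE, adjusted p = 6.11e-06 in limma). Its partner genes behaved alike. Ccnb2, for cyclin B2, went from 0.969, 0.971 and 0.967 to 87.2, 66.0 and 47.5 FPKM (log2 fold change 5.06 ± 0.192 SE, adjusted p = 3.42e-06 in limma), and Ccna2, for cyclin A2, from 1.52, 1.67 and 1.75 to 88.7, 64.4 and 44.9 FPKM (log2 fold change 4.61). Plk1, whose kinase promotes entry and spindle assembly, went from 0.70, 0.998 and 0.851 to 43.7, 30.7 and 25.3 FPKM (log2 fold change 4.18). Foxm1, the gene of the activator named above, rose from a mean of 1.48 ± 0.287 to 26.5 ± 7.33 FPKM (SD, n = 3 each).

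The CDC25 phosphatases, which activate CDK1 by removing inhibitory phosphates, started from different levels. Cdc25b was at 19.7, 20.4 and 24.4 FPKM in naive cells and at 167, 134 and 97.7 after activation (log2 fold change 2.55 ± 0.209 SE, adjusted p = 5.78e-05 in limma), and its activated mean of 133 FPKM was the highest of the 10. Cdc25c was at 0.0536, 0.0564 and 0.110 FPKM before and at 9.53, 7.88 and 5.85 after activation. Its ratio of means, 106, was the largest of the 51, although its log2 fold change of 3.01 was below their median, because of the 1 FPKM added before taking logs. The smallest rise of the 10 was that of Plk4, whose kinase starts centriole duplication before mitosis, at 4.12, 3.41 and 3.26 FPKM in naive and 18.4, 14.2 and 9.91 after activation (log2 fold change 1.69 ± 0.215 SE, adjusted p = 0.000461 in limma).

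Among the 9 genes of the spindle checkpoint and of anaphase, 8 were called higher and Pttg1 was not. Ube2c encodes the ubiquitin-conjugating enzyme that works with the anaphase-promoting complex. Its libraries stood at 0.892, 1.80 and 1.05 FPKM in naive cells and at 147, 108 and 80.8 in activated WT cells, the largest log2 fold change of the 51 (5.63 ± 0.233 SE, adjusted p = 4.98e-06 in limma). Cdc20, the activator of that complex at anaphase, was at 1.98, 2.45 and 2.67 and then at 74.3, 56.5 and 45.7 FPKM (log2 fold change 4.13). Mad2l1, whose product MAD2 binds and holds CDC20, was already at 8.46, 6.11 and 9.73 FPKM in naive cells and reached 70.5, 56.4 and 45.1 (log2 fold change 2.68). The checkpoint kinase genes Bub1, Bub1b and Ttk and the separase gene Espl1 were at 0.0730 to 1.43 FPKM in every naive library and at 5.78 to 45.9 in every activated WT library.

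Bub3 and Pttg1 departed from the rest of the group. Bub3 encodes a WD-repeat protein that recruits BUB1 and BUBR1 to kinetochores. It was at 33.4, 35.5 and 38.0 FPKM before and at 61.9, 54.3 and 53.6 after activation, a rise of 1.59 times that was still larger than the spread (log2 fold change 0.65 ± 0.0780 SE, adjusted p = 0.000333 in limma). Pttg1, which encodes securin, the inhibitor of separase, was at 18.6, 28.6 and 45.2 FPKM before and at 26.8, 22.9 and 23.4 after activation. The naive libraries alone spanned more than the whole activated range, and no difference was called (log2 fold change -0.24 ± 0.270 SE, adjusted p = 0.479 in limma). The sign of this value rests on naive library 3, without which it was 0.071.

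The 4 genes of the chromosomal passenger complex, which corrects wrong attachments at centromeres and then moves to the midzone, were all called higher (median log2 fold change 4.82). Birc5 encodes survivin. It was at 1.25, 1.62 and 1.27 FPKM before and at 161, 110.1 and 87.9 after activation (log2 fold change 5.62 ± 0.198 SE, adjusted p = 2.83e-06 in limma, the smallest of the 51). The kinase gene Aurkb was at 0.707, 0.837 and 0.454 and then at 64.3, 51.2 and 37.9 FPKM, and Cdca8, which encodes borealin, was at 0.892, 1.31 and 1.15 and then at 73.9, 51.9 and 39.9. The scaffold gene Incenp started higher, at 7.20, 6.84 and 6.44 FPKM, and reached 57.7, 43.9 and 38.1 (log2 fold change 2.58). In naive cells the highest and lowest of the 4 means differed 10.3 times, Incenp against Aurkb, and in activated WT cells 2.57 times, Birc5 against Incenp.

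The 7 kinetochore and centromere genes were all called higher (median log2 fold change 3.43). Cenpa, for the histone H3 variant that marks centromeres, was at 14.5, 14.5 and 15.8 FPKM before and at 145, 120.3 and 87.2 after activation (log2 fold change 2.86). The 4 genes of the NDC80 complex, which binds microtubules at the outer kinetochore, came to similar levels. Ndc80 was at 3.18, 3.08 and 3.66 FPKM before and at 36.6, 27.1 and 18.8 after activation (log2 fold change 2.68, the smallest of the 7), and Nuf2 was at 0.435, 0.404 and 0.487 and then at 34.4, 26.0 and 17.8. Over the 4 subunits the highest mean was 7.48 times the lowest in naive cells, 1.56 times in activated WT cells and 1.41 times in activated knockout cells. Cenpe, a kinesin of chromosome alignment, and Cenpf were at 0.110 to 0.383 FPKM in the naive libraries and at 6.77 to 24.5 in the activated WT libraries.

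All 8 spindle and motor genes were called higher (median log2 fold change 3.91). Nusap1, whose product bundles spindle microtubules, was at 0.514, 0.854 and 0.489 FPKM before and at 64.2, 44.9 and 31.5 after activation (log2 fold change 4.84 ± 0.233 SE, adjusted p = 7.17e-06 in limma). Kif11, the motor that pushes spindle poles apart, was at 0.465, 0.874 and 0.445 and then at 53.2, 39.8 and 27.8 FPKM. Tpx2, which activates Aurora A on the spindle, was at 0.404, 0.784 and 0.473 and then at 49.8, 38.3 and 27.3 FPKM. The smallest rise was that of the kinesin gene Kif20b, from 2.76, 2.43 and 2.52 to 17.4, 12.6 and 9.07 FPKM (log2 fold change 1.93 ± 0.195 SE, adjusted p = 0.000148 in limma). The 6 genes of the midzone and of cytokinesis were likewise all called higher (median log2 fold change 3.38). Racgap1 and Kif23 encode the 2 subunits of centralspindlin, which bundles midzone microtubules and directs the cleavage furrow. Racgap1 was at 2.85, 3.21 and 3.86 FPKM before and at 84.0, 65.7 and 56.2 after activation (log2 fold change 4.0), and Kif23 at 2.31, 2.58 and 2.23 and then at 27.0, 21.0 and 15.2 (log2 fold change 2.67). The ratio of Kif23 to Racgap1 was thus 0.810, 0.803 and 0.577 in the naive libraries and 0.321, 0.319 and 0.270 in the activated WT libraries. Prc1, the midzone crosslinker, was at 2.43, 1.71 and 2.13 and then at 47.5, 33.0 and 27.4 FPKM. Anln, for the contractile ring protein anillin, had the lowest activated levels of the 51, at 6.40, 4.40 and 3.20 FPKM after 0.187, 0.177 and 0.253 in naive cells (log2 fold change 2.19).

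Of the 7 genes of chromosome structure 6 were called higher, and Smc4 was not. Top2a, for the topoisomerase that untangles sister chromatids, was at 3.61, 4.57 and 2.79 FPKM before and at 229.6, 174 and 119.8 after activation (log2 fold change 5.21 ± 0.235 SE, adjusted p = 6.27e-06 in limma). Mki67, which encodes the proliferation marker Ki-67, was at 0.838, 1.48 and 0.836 and then at 73.2, 55.1 and 35.5 FPKM. The other 5 encode the subunits of condensin I, which compacts mitotic chromosomes. Ncapd2 was at 7.52, 6.99 and 7.41 FPKM before and at 84.9, 65.0 and 50.4 after activation. Smc4 was at 182, 156 and 160.0 FPKM before and at 205, 188 and 215 after activation, so that the groups did not overlap but the difference was small (log2 fold change 0.29 ± 0.134 SE, adjusted p = 0.105 in limma). Fitted on the 6 WT libraries alone, it was called (limma adjusted p = 0.0367), and over the alternatives that value ran from 0.0229 to 0.430. Its partner in the same ring, Smc2, was at 5.33, 6.55 and 5.76 and then at 35.0, 28.0 and 20.8 FPKM (log2 fold change 2.05). Smc4 stood 34.1, 23.8 and 27.8 times as high as Smc2 in the naive libraries and 5.87, 6.73 and 10.3 times in the activated WT libraries. The microRNA genes Mir15b and Mir16-2 lie within Smc4.

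**Figure D2:**
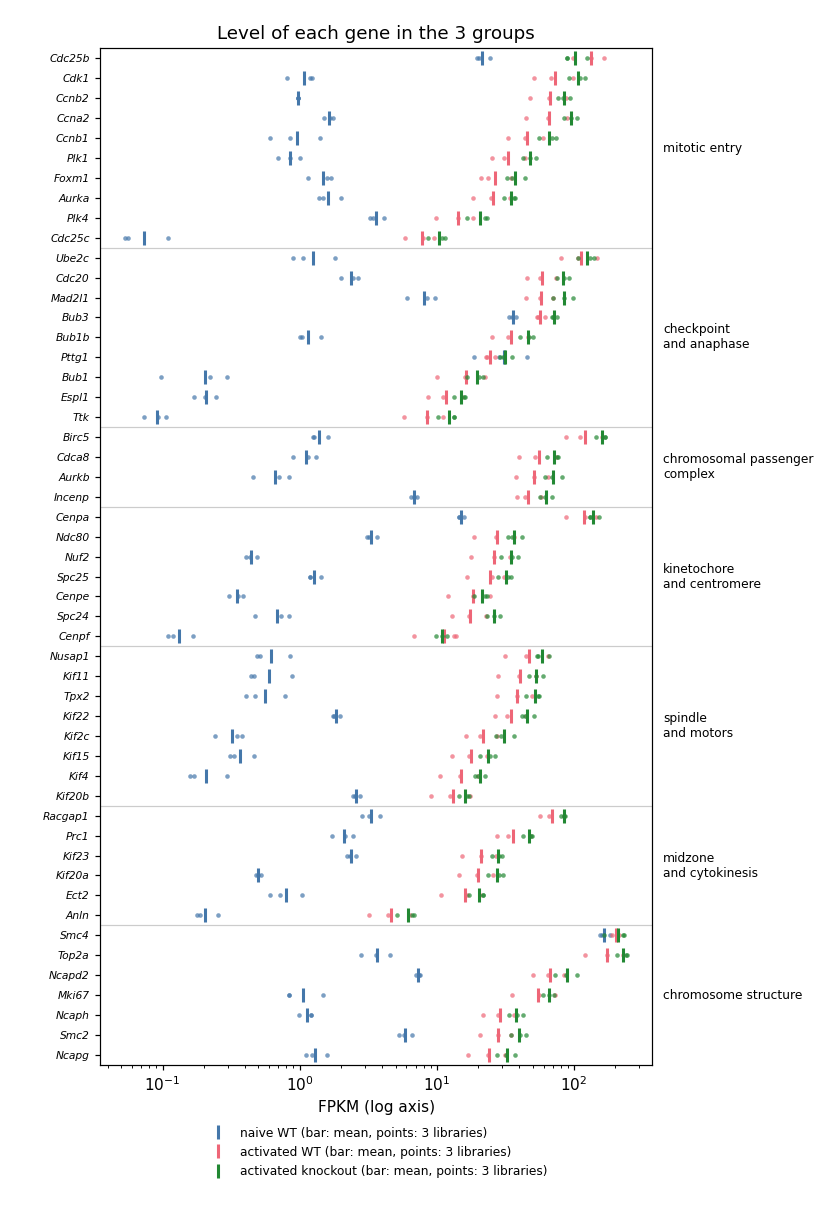
FPKM of the 51 genes on a log axis, in rows grouped by role; points are libraries and bars are group means for naive WT, activated WT and activated knockout cells. Naive and activated points are far apart for all genes but Bub3, Pttg1, Smc4 and, to a lesser degree, Plk4, Smc2 and Kif20b, while the 2 activated groups lie close to each other.

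The activated WT libraries differed among themselves in a way shared by nearly all 51 genes. Activated WT library 1 was the highest of its group for 50 genes (all but Smc4) and library 3 the lowest for 49 (all but Pttg1 and Smc4). The ratio of library 1 to library 3 had a median of 1.81 over the 51 genes and of 0.982 over all tested genes. Summed over the 51 genes, the levels were 344, 336 and 362 FPKM for naive, 2987, 2291 and 1797 for activated WT and 2719, 2969 and 3229 for knockout libraries. In the knockout group library 3 was the highest for 41 genes and library 1 the lowest for 47, with a smaller median ratio of library 3 to library 1 of 1.24. The sums of the 2 activated groups overlap, since knockout library 1 lies below activated WT library 1.

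Activated cells of both genotypes were compared to ask whether the conditional knockout went with another level of these genes. The targeted gene, Bmpr1a, was at 2.16, 2.92 and 1.40 FPKM in activated WT and at 0.957, 1.93 and 1.20 in knockout cells, which overlapped and did not pass (limma adjusted p = 0.261), and a gene-level value also counts exons outside a deleted part. None of the 51 genes was called: 0 higher, where 3.3% of all tested genes were, and 0 lower, where 0.84% were. Nevertheless 49 of 51 differences were above 0 (60.5% of all tested genes), and their median was 0.42, against 0.06 over all tested genes. At an unadjusted limma p under 0.05, 20 were higher and 0 lower, against 18.7% and 6.35% of tested genes. All libraries of the knockout lay above all of activated WT for 4 genes (Bub3, Cdc20, Pttg1 and Spc24), against 22.8% of tested genes. The 95% intervals of 31 genes included 0. Over all 51 genes the lowest bound, -0.86, belonged to Cdc25b, followed by -0.54 for Cenpf and -0.34 for Ube2c. The highest bound of the 51 was 1.13, for Cdk1, whose interval lay above 0. The median rests in part on single libraries of the control: it was 0.63 without activated WT library 1 and 0.23 without activated WT library 3. With array quality weights, which lower the weight of libraries that deviate from their group, 20 of the 51 were called higher, as were 18.6% of all tested genes in that fit.

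The smallest p-values belonged to Bub3, Spc24, Cdc20, Incenp and Plk1. Bub3 was at 61.9, 54.3 and 53.6 FPKM in activated WT and at 69.2, 70.1 and 75.5 in knockout cells. The 3 knockout libraries lay above all 3 activated WT libraries, and the difference of 0.33 (95% interval 0.15 to 0.52) just missed the threshold (limma adjusted p = 0.0546, range 0.00880 to 0.188 over the alternatives; exact permutation p = 0.1, the smallest that 3 against 3 allows). Cdc20 was at 74.3, 56.5 and 45.7 FPKM and at 74.6, 84.1 and 91.5 in knockout cells (log2 fold change 0.52, 95% interval 0.12 to 0.92, limma adjusted p = 0.12). Spc24, an NDC80 subunit, was at 22.7, 17.1 and 13.0 FPKM and at 23.2, 26.0 and 28.8 in knockout cells (log2 fold change 0.57, limma adjusted p = 0.12). In both genes the lowest knockout library lay barely above the highest activated WT library. Incenp, at 57.7, 43.9 and 38.1 against 56.8, 61.6 and 69.4 FPKM, and Plk1, at 43.7, 30.7 and 25.3 against 42.7, 48.1 and 53.2, overlapped by 1 library (limma adjusted p = 0.121 and 0.123). Without activated WT library 1, Incenp (log2 fold change 0.60, limma adjusted p = 0.0498) and Plk1 (0.76, limma adjusted p = 0.0491) passed.

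**Figure D3:**
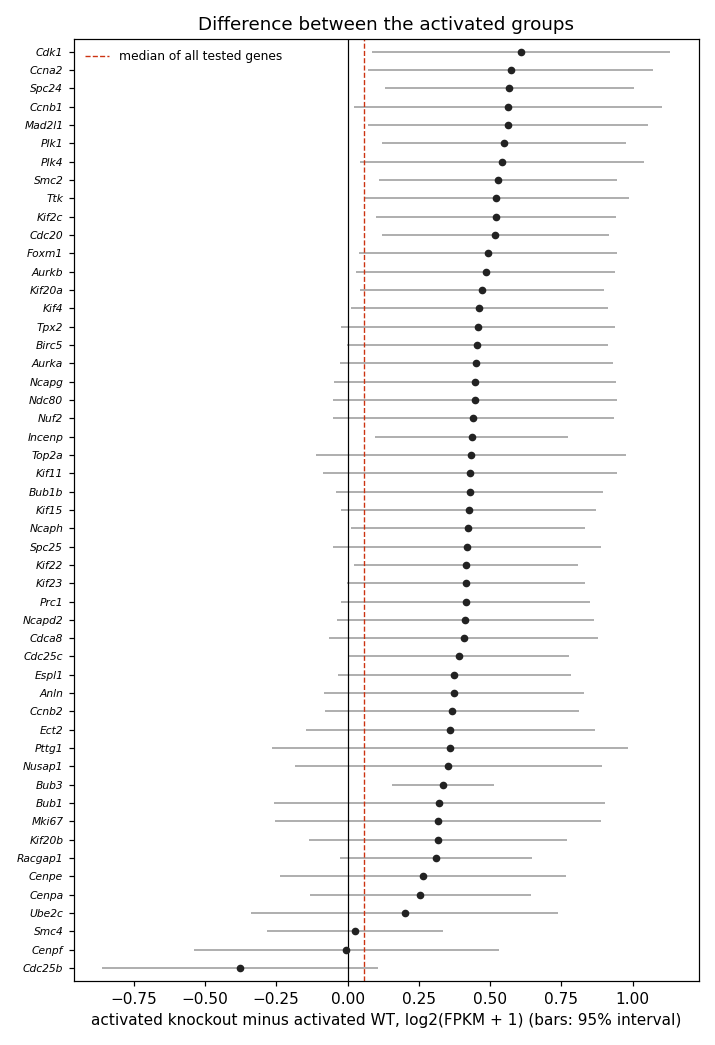
Difference between activated knockout and activated WT cells in mean log2(FPKM + 1) for each of the 51 genes, with 95% intervals from the limma fit, ordered by size; the dashed line is the median of all tested genes. Of the 51 points 49 lie above 0, between 0.03 and 0.61, and 31 intervals include 0.

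By role, the median difference ran from 0.37 for the checkpoint and anaphase genes to 0.52 for the genes of mitotic entry. Cdk1 had the largest, 0.61 (95% interval 0.09 to 1.13), with 98.3, 67.8 and 51 FPKM in activated WT and 91.2, 111 and 120.4 in knockout cells. Only Cdc25b and Cenpf were below 0. Cdc25b was at 167, 134 and 97.7 FPKM in activated WT and at 124, 89.0 and 89.7 in knockout cells, so that the groups overlapped (log2 fold change -0.38, 95% interval -0.86 to 0.11, limma adjusted p = 0.309). The ratio of Cdc25b to Cdk1 within a library, which was chosen after the values had been seen, was 1.70, 1.98 and 1.92 in activated WT and 1.36, 0.80 and 0.745 in knockout cells, without overlap. The exact permutation p was 0.1, the smallest that 3 against 3 allows, and 0.225 when adjusted over the 9 ratios computed. Cenpf was at 13.8, 13.4 and 6.77 FPKM and at 10.9, 11.8 and 9.78 in knockout cells, a log2 fold change of -0.004 (95% interval -0.54 to 0.53). In all, 7 genes lay below activated WT library 1 in all 3 knockout libraries: Cdc25b, Bub1, Ube2c, Cenpe, Cenpf, Kif20b and Mki67. Pttg1, the gene without a rise on activation, was at 26.8, 22.9 and 23.4 FPKM and at 30.2, 28.9 and 35.6 in knockout cells, above every activated WT library but within its own naive range (log2 fold change 0.36, limma adjusted p = 0.454; exact permutation p = 0.1).

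**Figure D4:**
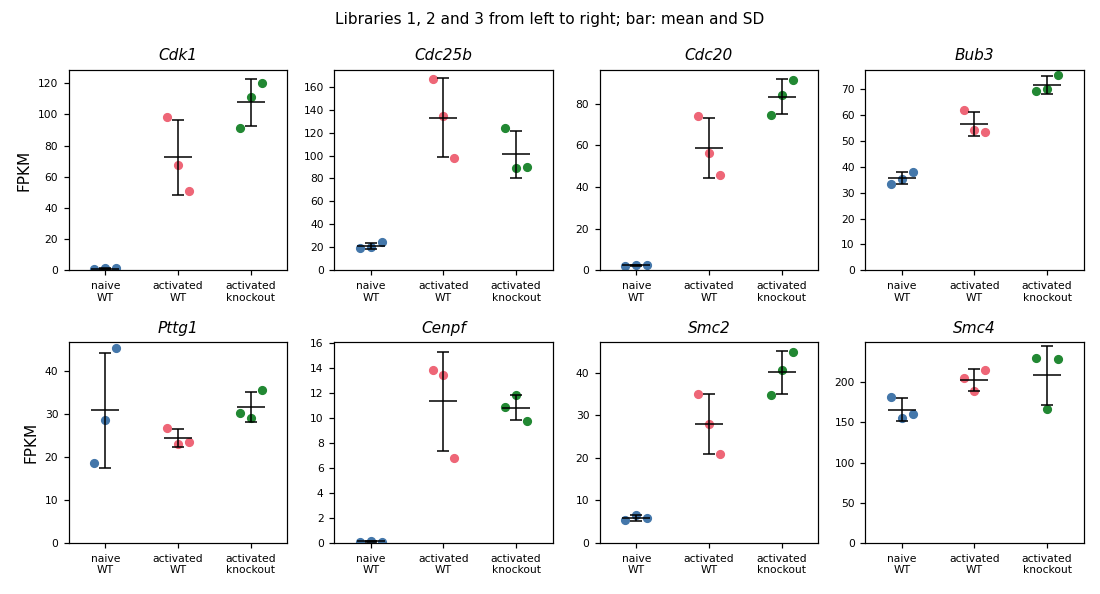
FPKM of 8 genes in each library by group, with mean and SD. Cdk1 and Cdc20 rise steeply from naive to activated cells, Bub3 rises little with knockout libraries above those of activated WT, Cdc25b has a lower mean in knockout than in activated WT cells, Cenpf has a slightly lower one, Pttg1 does not rise, and Smc4 is high in all groups while its partner Smc2 is not.

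Against the naive libraries, activated knockout cells gave the same count as activated WT cells, 49 of 51 called higher (31.8% of all tested genes), with a median log2 fold change of 4.04. This comparison shares its libraries with the 2 others, and genotype differs along with activation. For Cdk1 the log2 fold change was 5.71 in knockout and 5.10 in WT cells, for Birc5 6.08 and 5.62, and for Smc4 0.31 and 0.29. Pttg1 and Smc4 were again the genes not called.

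Other genes of the same processes, from lists chosen by function, were examined in the same fit. Of 122 further mitosis genes in 6 lists, 79 were called higher and 8 lower on activation, where 26.2% of all tested genes were called higher and 25.8% lower. In the spindle, motor and cytokinesis list 26 of 27 were called higher (median log2 fold change 3.25), among them Cep55, for a protein of the last abscission step, at 0.378, 0.421 and 0.423 FPKM in naive and 31.6, 24.6 and 17.5 in activated WT cells. Its remaining member, Numa1, whose protein anchors spindle poles, fell from 80.3, 79.6 and 75.9 to 50.8, 52.5 and 50.8 FPKM (log2 fold change -0.60, limma adjusted p = 0.000215). Of 30 other kinetochore genes 24 were called higher and 0 lower (median 2.19), and of 16 other mitotic kinase, phosphatase and cyclin genes 10 were (median 1.75). Of 17 subunits and regulators of the anaphase-promoting complex, for which Ube2c and Cdc20 work, 6 were called higher and 0 lower, with a median of 0.15. Their summed level was 488, 528 and 516 FPKM before and 723, 643 and 598 after activation. Of 16 cohesin and condensin II genes 7 were called higher and 3 lower. Cdca5, for sororin, rose from 0.442 ± 0.0229 to 20.4 ± 5.88 FPKM, and the fallers Esco1, Nipbl and Mau2 were at 19.5 to 23.6 FPKM in the activated mean.

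Another list holds 16 genes of regulators of such promoters, among them genes of the DREAM and MuvB complexes and Nfya. Of these 16 genes, 6 were called higher and 4 lower, beside 26.2% and 25.8% of all tested genes. Mybl2, for the activator B-MYB, rose from 1.32, 1.24 and 1.57 to 14.4, 11.4 and 9.76 FPKM (log2 fold change 2.42, limma adjusted p = 2.95e-05), and Tfdp1, the partner of E2F factors, from 18.1, 19.2 and 17.7 to 71.1, 61.2 and 57.8. E2f5 fell from 5.03, 4.85 and 5.73 to 2.59, 2.39 and 2.91 FPKM (log2 fold change -0.77, limma adjusted p = 0.000290), and Nfya, a subunit of NF-Y, from 31.4, 35.9 and 24.7 to 24.4, 22.5 and 20.9 (log2 fold change -0.41, limma adjusted p = 0.0325). Among the 51 genes, the 31 with TTTGAA in their window had a median log2 fold change on activation of 3.55 and the 11 with a window but no TTTGAA had 3.77. Among all tested genes with a window, 33.9% of the 1120 with TTTGAA were called higher, against 27.7% of the 8064 without. The 1120 include the 31 just named, all of which were called higher. The motif was present in 39% of the 100 windows of the 6 mitosis lists and in 14.3% of the 21 windows of the DNA replication list.

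Between the activated groups, 5 of the 122 further mitosis genes were called higher in the knockout and 0 lower (3.3% and 0.84% of all tested genes): Mad1l1, Zwint, Gtse1, Cdc25a and Tfdp1. Mad1l1, which encodes the MAD2 partner MAD1, was at 10.2, 8.84 and 9.39 FPKM in activated WT and at 13.9, 15.2 and 15.4 in knockout cells (log2 fold change 0.60, 95% interval 0.41 to 0.78, limma adjusted p = 0.0165). Zwint, for a kinetochore protein, was at 34.8, 34.2 and 29.8 and at 42.4, 43.3 and 45.7 FPKM, and Cdc25a, for the phosphatase that acts earliest in the cycle, at 8.02, 7.39 and 7.13 and at 10.1, 14.0 and 12.6. None of these 3 was called on activation, and Mad1l1 and Zwint had naive levels close to those of activated WT cells. Gtse1, for a microtubule-bound regulator of p53, was at 14.8, 11.7 and 8.87 and at 17.9, 21.0 and 23.7 FPKM (log2 fold change 0.79, limma adjusted p = 0.0472). Each of the 5 calls was lost when activated WT library 2, knockout library 2 or knockout library 3 was left out. Of the 19 alternatives, the call was lost in 5 for Mad1l1, in 10 for Tfdp1 and in 13 each for Zwint, Gtse1 and Cdc25a. The limma adjusted p ranged from 0.00243 to 0.0824 for Mad1l1 and up to 0.167 for Gtse1.

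Genes of DNA replication act before mitosis in the cycle. On activation 23 of 24 were called higher (26.2% of all tested genes), with a median log2 fold change of 1.81. Between the activated groups 2 were called higher (3.3% of all tested genes), Fen1 (9.22, 8.24 and 8.39 FPKM against 16.1, 17.0 and 20.1, limma adjusted p = 0.0159) and Tyms (43.7, 32.7 and 24.3 against 54.4, 61.6 and 69.7, limma adjusted p = 0.0483). Their median difference was 0.66, all 24 were higher at an unadjusted p under 0.05 (18.7% of all tested genes), and in 21 the knockout libraries all lay above those of activated WT (22.8%). Summed over the list and divided by the sum over the 51 genes, this gave ratios of 0.404, 0.406 and 0.436 for activated WT and of 0.469, 0.529 and 0.515 for knockout libraries, without overlap and without a test. Both calls were lost without activated WT library 2, knockout library 2 or knockout library 3. Of the 19 alternatives, the Fen1 call was lost in 4 (limma adjusted p up to 0.0809). The Tyms call was lost in 14 (limma adjusted p up to 0.172). Of 10 tubulin genes, which encode the building blocks of the spindle and of all other microtubules, 7 were called higher and 1 lower on activation (26.2% and 25.8% of all tested genes). Tubg1, for the gamma-tubulin of spindle poles, was called between the activated groups (19.8, 17.3 and 16.6 FPKM against 26.3, 27.6 and 30.8, limma adjusted p = 0.0282). This call was lost in 7 of 19 alternatives, among them those without activated WT library 2 or 3, knockout library 2 or 3 or naive library 1, with an adjusted p of up to 0.115.

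Among 13 genes of CDK inhibitors, p53 and p53 targets, which restrain the cycle, 6 were called higher in the knockout and 0 lower (3.3% and 0.84% of all tested genes). The 6 were Cdkn1a, Trp53, Ccng1, Zmat3, Sesn2 and Plk2. Cdkn1a, for the CDK inhibitor p21, was at 0.127, 0.410 and 0.353 FPKM in naive, 6.67, 8.31 and 3.54 in activated WT and 18.4, 31.2 and 29.5 in knockout cells. The 2 activated groups did not overlap (log2 fold change 1.96 ± 0.291 SE, adjusted p = 0.0232 in limma). Zmat3, at 3.32, 3.61 and 3.90 FPKM in activated WT and at 6.05, 7.07 and 8.34 in knockout cells, and Plk2, at 1.48, 2.17 and 1.29 and at 3.80, 3.71 and 4.38, were apart as well. Without knockout library 3 none of the 6 was called, and without knockout library 2 only Sesn2 was. Of the 19 alternatives, the call was lost in 12 for Trp53, in 11 for Ccng1 and in 7 for Sesn2. It was lost in 4 each for Cdkn1a and Zmat3, and in 5 of 18 for Plk2.

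Markers of the sorted cells and of other cells moved with the groups to different degrees. The 11 CD4 T cell markers summed to 3064 to 3701 FPKM in all 9 libraries, with none at 0. The 2 CD8 markers, Cd8a and Cd8b1, summed to 9.48 to 41.4 FPKM in naive, 147 to 230.4 in activated WT and 219.6 to 279 in knockout libraries, although the sort was for CD4+ cells. The 7 B cell markers summed to 3.42 to 191, 144 to 183 and 134 to 203 FPKM. The 10 myeloid markers summed to 74.7 to 821 FPKM in naive libraries and to 7.12 to 12.8 in the activated ones, with at most 2 of 10 at 0 in any library. The 6 erythroid markers summed to 63.6 to 84.2 and 0.816 to 1.72 FPKM, and the 5 NK cell markers to 11.5 to 48.2 and 2.36 to 8.25. The part of such cells in the levels above was not tested.

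Some of the 51 values may hold reads of other genes. The counting is not stated to use strand, so a gene cannot be separated from one that overlaps it in the other direction, and 12 of the 51 overlap a protein-coding gene of the table on the other strand. For Nusap1 that gene is Oip5, at 7.57 FPKM in the activated WT mean, and for Cdc20 it is Elovl1, at 35.6 FPKM in the naive and 45.4 in the activated WT mean. Ccnb1, Ccnb2, Kif22 and Kif4 have a pseudogene of their name in the annotation, with which reads may be shared. The 51 genes lie on 16 chromosomes, 9 of them on chromosome 2.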

How the data were processed

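Total RNA was sequenced on Illumina libraries, per the labels' protocols, and the authors deposited FPKM values of all libraries in 1 table. TopHat2, Cufflinks, Cuffdiff and the build GRCm38 are named per the submitters' processing notes. For versions, annotation and strand setting, nothing is given in the sources used here. FPKM values are estimates, so the depth is unknown and no counting interval was computed. Identifiers were matched to symbols, and positions come from the GENCODE annotation of GRCm38. Tests used limma 3.58.1 in R 4.3.3 on log2(FPKM + 1), with a mean per group, a trend in the variance and every library in 1 two-sided fit. Genes under a mean of 0.5 FPKM were left out (15126 of 25759 tested). The fit was tested on simulated data with independent noise and known changes placed in activated WT cells, read against naive cells only. Differences as small as those of the 51 genes between the activated groups were not simulated. Exact permutation p-values of single genes are two-sided. The 51 genes, the gene lists and the tests were chosen with earlier results of these data known. Values in every library are given for the 3 most abundant and the least changed gene of each role, the 5 largest rises, genes not called on activation and the 5 smallest p in the knockout comparison; from the lists, up to 3 called genes per direction were eligible. A few others were named after their values were seen (Cdc25c, Mki67, Smc2, Cenpf, Plk1 on activation, Trp53, Ccng1, Sesn2 and genes in counts). Alternatives changed the pseudocount, filter, scaling, weights, libraries and replicate block. The deviations of same-numbered libraries correlated above 0 but weakly (0.0027 to 0.054). The labels do not say that the numbers pair samples, so the main fit did not take them as pairs.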

Additional observations from a re-analysis of the deposited data

How the results depend on the processing

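The 49 calls on activation kept their direction and side of the threshold under each of the 19 alternatives, and so did 28 of the 51 results of the knockout comparison. The calls on activation over all genes ranged from 6702 to 7744 with a library left out, those of the 51 genes from 49 to 50, and their median log2 fold change from 3.43 to 3.79. For activated knockout against naive WT cells the ranges were 7415 to 8600, 49 to 50, and 3.95 to 4.10. A smaller pseudocount raised these medians, by construction, to 4.76 (0.1) and 4.13 (0.5), and to 5.20 and 4.48 for knockout against naive cells.

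Between the activated groups, 626 genes were called over all genes. The count was 3851 with array quality weights, 306 with median-of-ratios scaling, 324 with quantile normalization, 92 with only the 6 libraries compared and 64 to 1037 with a library left out (64 without activated WT library 2, 1037 without knockout library 1). The share of calls higher in the knockout fell from 79.7% to 54.2% with median-of-ratios scaling and to 56.5% with quantile normalization, and the median of the 51 genes to 0.35 and 0.33. Array quality weights called 20 of the 51 higher, and leaving out a library 0 to 2 (2 without activated WT library 1), with medians of 0.23 to 0.63.

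Uncalled differences changed sign for Cenpf (knockout, 0.0013 with pseudocount 0.1, 0.16, 0.14 and 0.060 without activated WT library 1, activated WT library 2 and knockout library 3, within -0.31 to 0.16 over left-out libraries), Pttg1 (activation, 0.17 with array quality weights, 0.071 without naive library 3, within -0.55 to 0.071), Ube2c (knockout, -0.010 without activated WT library 3, within -0.010 to 0.42) and Smc4 (knockout, -0.052 with median-of-ratios scaling, -0.021 with quantile normalization, -0.00036 scaled to the sum over protein-coding genes, an alternative chosen after seeing the data, and -0.026, -0.053 and -0.050 without activated WT library 2, knockout library 1 and knockout library 3, within -0.053 to 0.18). The cause was not tested.

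With the replicate number as a block, 58 genes were called between the activated groups, and none of the 51. The labels do not say that the numbers pair samples. As a hint from the data, the deviations of all 9 same-numbered pairs of libraries correlated above 0 (up to 0.054). Deviations were taken from the means of 3 libraries, so correlations above 0 for some pairs push those of others below 0. That 13 of 18 other pairs correlated below 0 is therefore not a separate hint. The same holds for the 8 of 9 libraries that correlated best with one of their own number, the exception being knockout library 3.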
